A study of Mus musculus with 23 samples.

Results

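The mu and theta class glutathione transferases were followed in the livers of mice given furan. The group was taken as every probe of Gstm1 to Gstm7, Gstt1, Gstt2 and Gstt3, found by matching the accession in the array's own annotation to a mouse gene symbol. This gave 18 probes, 15 for the 7 mu class genes and 3 for the 3 theta class genes, of 55681 probes on the array. The 10 genes were among 20018 matched symbols. The mice were females of the B6C3F1 hybrid strain, bought at 5 to 6 weeks of age and acclimatised for at least 7 days. They received corn oil by gavage for 21 days, with furan at 8 mg/kg body weight (5 animals), 4 mg/kg (4), 2 mg/kg (5) or 1 mg/kg (4), or with no furan (5 controls). Livers were taken 4 hours after the last dose, and each liver was hybridised once, in the Cy5 channel, against universal mouse reference RNA in the Cy3 channel of a 2-colour Agilent array. No array had the dyes swapped.

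Glutathione transferases couple the thiol of glutathione to reactive, electrophilic compounds, which then leave the cell as conjugates. The mu class enzymes are abundant in the cytosol of mouse hepatocytes and are known for inducibility by foreign compounds, in part through the transcription factor Nrf2, which binds antioxidant response elements. The theta class enzymes are an older branch of the family, known in liver for handling small halogenated compounds and peroxides. Furan itself is oxidised in hepatocytes by cytochrome P450 to a reactive dialdehyde that binds glutathione.

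Values are log2 ratios of a probe's liver signal over its reference signal on the same array, so a value is a level relative to the reference RNA, and a difference between groups of 1 unit is a change by a factor of 2. Ratios of different probes have different denominators and were not set against each other as levels. All 18 probes were well above background in both channels on all 23 arrays, none was saturated, and all passed the filter that left 25576 probes for the tests. The number of arrays limits the precision. Mu class genes are close in sequence, and how much each probe binds the RNA of its relatives was not tested.

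The 7 mu class genes form a cluster on chromosome 3, in the order Gstm5, Gstm7, Gstm6, Gstm3, Gstm2, Gstm1, Gstm4 in the RefSeq annotation, with Gm9515, Gm12497 and Gm12502 after Gstm5, Gstm3 and Gstm1, and the theta class genes lie on chromosome 10 in the order Gstt3, Gstt1, Gstt2, with Gstt4 before Gstt2. RefSeq promoter windows (build GRCm38.p6), from 250 bases before to 50 bases after a gene's start, were at hand for 9 of the 10 genes, as 15 windows. The antioxidant response element core, spelled TGACNNNGC, and the AP-1 site TGACTCA, which is bound by Jun proteins, were searched on both strands. The first was present in 2 of the 15 windows, against 12.4% of 32851 windows of all genes, and the second in 1 of the 15, against 5.2%. Neither was present in a window of Gstm1, the gene that rose, or of Gstm4, the next mu class gene. A match is only a match of letters, and its absence says only that these letters are not in the window. The farther upstream of the 2 windows of Gstm1 and of Gstm4 is shown beside the window of Gstm5 and the 1 of 2 windows of Gstm7 that hold the matches (in capitals).
Gstm1 (chr3:108017924-108018223, minus strand): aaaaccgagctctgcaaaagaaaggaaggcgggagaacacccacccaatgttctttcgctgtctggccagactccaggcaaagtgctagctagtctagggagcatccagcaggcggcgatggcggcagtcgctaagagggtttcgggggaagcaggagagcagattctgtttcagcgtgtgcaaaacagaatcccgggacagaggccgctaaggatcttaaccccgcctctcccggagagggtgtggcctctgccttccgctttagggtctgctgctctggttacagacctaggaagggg
Gstm4 (chr3:108044810-108045109, minus strand): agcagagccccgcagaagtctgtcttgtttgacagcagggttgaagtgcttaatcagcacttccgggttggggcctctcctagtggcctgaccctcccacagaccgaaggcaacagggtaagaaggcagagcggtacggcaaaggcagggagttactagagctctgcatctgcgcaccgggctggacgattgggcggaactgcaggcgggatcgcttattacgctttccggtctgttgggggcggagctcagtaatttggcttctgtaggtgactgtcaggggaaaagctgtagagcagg
Gstm5 (chr3:107895604-107895903, plus strand): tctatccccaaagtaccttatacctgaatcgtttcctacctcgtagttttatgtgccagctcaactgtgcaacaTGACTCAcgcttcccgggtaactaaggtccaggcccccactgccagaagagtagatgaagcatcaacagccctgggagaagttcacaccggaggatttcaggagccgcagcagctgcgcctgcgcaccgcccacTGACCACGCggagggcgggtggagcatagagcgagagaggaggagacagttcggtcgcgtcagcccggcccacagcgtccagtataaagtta
Gstm7 (chr3:107931565-107931864, minus strand): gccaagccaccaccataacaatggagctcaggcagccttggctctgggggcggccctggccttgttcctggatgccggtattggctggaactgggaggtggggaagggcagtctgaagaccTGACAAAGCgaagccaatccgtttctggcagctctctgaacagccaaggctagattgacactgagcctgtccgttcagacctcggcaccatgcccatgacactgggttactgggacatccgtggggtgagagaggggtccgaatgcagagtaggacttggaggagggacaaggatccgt
In Gstm5 the AP-1 site lay from -176 to -170 and the antioxidant core from -42 to -34, counted from the start. In Gstm7 the antioxidant core lay from -129 to -121. The 2 capitalised stretches of Gstm5 do not overlap.

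The arrays differed in ways that bear on these genes. The livers carried the liver's own transcripts: the 11 hepatocyte genes measured, among them Alb (albumin) and Apob (the apolipoprotein of secreted lipoproteins), stood at log2 ratios of 5.24 to 9.21 in controls. The arrays sat on 5 slides, and deviations from group means over all probes correlated at a median of 0.217 between arrays of 1 slide, against -0.0626 between arrays of different slides. Slide 3 held control replicate 2, 1 mg/kg replicate 1, 2 mg/kg replicate 5 and 8 mg/kg replicate 3. Its arrays were high in hepatocyte transcripts, by 0.77 on average over that list relative to the control mean. Kupffer cell (0.22 to 0.48) and erythrocyte transcripts (0.32 to 0.73) also lay above the control mean on each of them. On other slides these 2 lists reached 0.71 and 0.43, in 2 mg/kg replicate 4. Pancreatic transcripts, from 4 measured genes of a list of 17, were high on 4 arrays, 8 mg/kg replicate 5, 4 mg/kg replicate 1 and 2 mg/kg replicates 1 and 5, at 2.09 to 3.11 above the control mean, whereas no control exceeded 0.33. Replicates were separate animals of the same dose.

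At 8 mg/kg, Gstm1 rose in liver, and no probe of the other 9 genes passed the test. Both Gstm1 probes were higher, by 0.61 ± 0.15 (SE) and 0.46 ± 0.12 on the log2 scale, which is 1.53-fold and 1.38-fold. The 8 mg/kg against control comparison, which asks what the highest dose does to the level of each gene, called 2 of the 18 probes, both higher, where 7.55% of all 25576 probes passed in either direction and 4.04% passed as higher. At an unadjusted p of 0.05, 5 of the 18 probes passed (27.8%), against 20.8% of all probes. The median difference over the 18 probes was -0.06, against -0.03 over all probes, and 6 of the 18 differences were positive, against 45.3% of all probes. Both called probes belong to 1 gene.

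Gstm1 encodes a major mu class enzyme of mouse liver. Its probe A_55_P2062190 stood at log2 ratios of 4.99, 4.43, 4.98, 4.54 and 4.54 in the 5 livers at 8 mg/kg (replicates 1 to 5), against 4.36, 4.00, 3.65, 4.01 and 4.40 in the 5 control livers. Every liver at 8 mg/kg was above every control liver, the single member probe of which this was true (4.44% of all probes had all livers at 8 mg/kg above all controls). The difference was 0.61, with a 95% interval of 0.30 to 0.93, and limma's adjusted p was 0.0159.

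The second Gstm1 probe, A_55_P1966432, read 4.86, 4.57, 4.69, 4.62 and 4.57 in the 8 mg/kg livers, against 4.17, 4.57, 3.92, 4.10 and 4.25 in the control livers. The groups touched at control replicate 2, the control on slide 3, whose value reached the lowest of the treated livers, and the other 4 controls lay below all 5. The difference was 0.46, with an interval of 0.21 to 0.71 and an adjusted p of 0.0233 from limma. The changes of the 2 probes differed by 0.15 (exact permutation test, two-sided, p = 0.389, adjusted p = 0.944 over 10 pairs of probes of the same gene).

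Within slides that held both groups, Gstm1 was higher at 8 mg/kg on all 4 slides, by 0.54 to 0.98 for A_55_P2062190 and by 0.12 to 0.70 for A_55_P1966432. With slide as a block the differences were 0.70 and 0.49, with adjusted p of 0.000495 and 0.00521 (limma). The calls did not hold under every setting. Scaling the spread of the log ratios to be equal between arrays gave 0.49 and 0.35, with adjusted p of 0.444 and 0.533 (limma). Without slide 3, A_55_P2062190 gave 0.52 (adjusted p = 0.0788, limma) while A_55_P1966432 still passed at 0.55 (0.00575). Without the 4 arrays high in pancreatic transcripts, A_55_P1966432 gave 0.48 (adjusted p = 0.051, limma) and A_55_P2062190 passed at 0.65 (0.0345). A_55_P1966432 also missed the threshold without control replicate 3 (0.39, adjusted p = 0.0685), without control replicate 4 (0.43, 0.055) and without 8 mg/kg replicate 1 (0.41, 0.0612), all from limma. In whole liver RNA, more Gstm1 RNA per cell and more cells that carry it cannot be told apart.

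**Figure D1:**
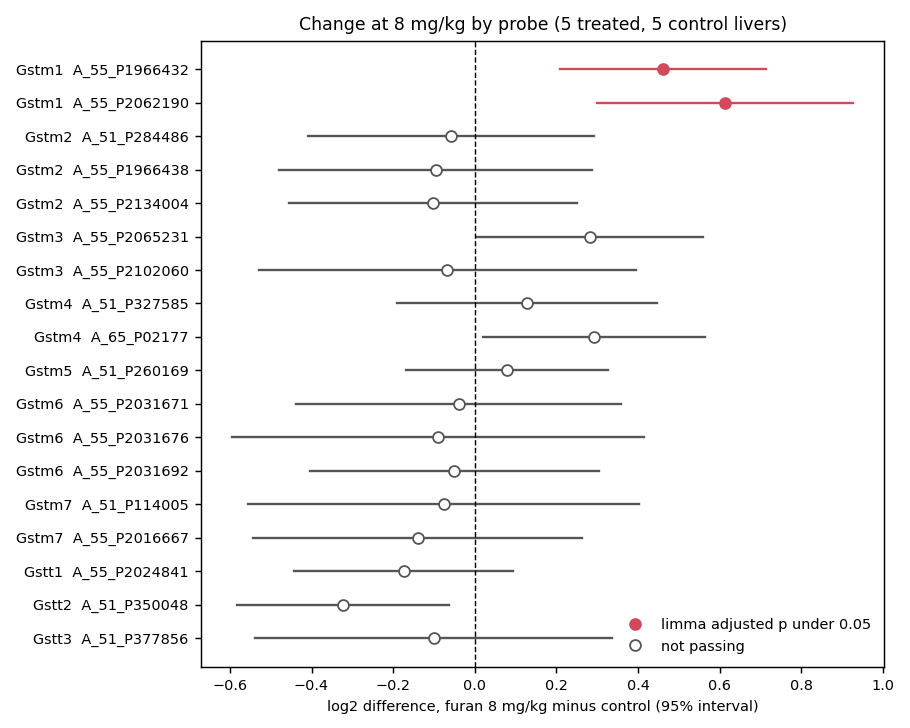
Difference between 5 livers at 8 mg/kg furan and 5 control livers for each of the 18 probes, on the log2 scale (horizontal axis), with 95% intervals from limma. Filled red points passed an adjusted p of 0.05. Both Gstm1 probes lie right of 0, at 0.61 and 0.46, and the other 16 probes did not pass.

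Gstm4 is the next mu class gene after Gstm1 in the cluster, and 1 of its 2 probes had an unadjusted p under 0.05. A_65_P02177 read 4.85, 4.49, 4.23, 4.58 and 4.60 in the 8 mg/kg livers, against 4.37, 4.36, 4.03, 4.14 and 4.38 in the control livers. Only 8 mg/kg replicate 3, the slide 3 array, lay inside the control range. The difference was 0.29 (95% interval 0.02 to 0.56) and did not pass (adjusted p = 0.20, limma), although without slide 3 it was 0.40 and did (0.0459). The other Gstm4 probe, A_51_P327585, gave 0.13 with an interval of -0.19 to 0.45.

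Gstm3, a further mu class enzyme of the same cluster, had probes that read differently. A_55_P2065231 stood at 4.02, 4.04, 4.22, 4.19 and 4.12 in the 8 mg/kg livers, against 3.66, 4.20, 3.74, 3.86 and 3.71 in the control livers. All 5 treated livers exceeded the 4 controls that were not on slide 3. The difference was 0.28 (interval 0.01 to 0.56, adjusted p = 0.23, limma), and it was positive on 4 of 4 slides, by 0.02 to 0.46. A_55_P2102060, in contrast, gave -0.07 with an interval of -0.53 to 0.39. The changes of the 2 Gstm3 probes differed by 0.35. This difference did not pass (exact permutation test, two-sided, p = 0.0714, adjusted p = 0.714 over 10 pairs).

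Gstm2 lies beside Gstm1 on its other side. Its 3 probes gave differences of -0.10 to -0.06 at 8 mg/kg, with 95% limits that reached from -0.48 to 0.29 over the 3. A change of the size seen for Gstm1 by A_55_P2062190 lay outside all 3 intervals. Gstm5, best known from brain and testis, gave 0.08 (interval -0.17 to 0.33). Its livers lay close to the reference RNA, at -0.08 to 0.11 in 8 mg/kg livers and -0.41 to 0.12 in control livers.

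The 3 Gstm6 probes gave -0.09 to -0.04 and the 2 Gstm7 probes -0.14 and -0.08, with intervals that together reached from -0.59 to 0.42. Probe A_51_P114005 for Gstm7 was printed 10 times on each array: the SD between its spots had a median of 0.171 per array, against a pooled SD between animals of 0.38. No difference in change was detected between probes of Gstm6 or of Gstm7 (exact permutation tests, two-sided, adjusted p of 0.944 for each of 4 pairs).

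The 3 theta class genes all had lower means at 8 mg/kg, and none passed. Gstt2, a theta enzyme known for acting on peroxides and sulfate esters, read 4.27, 3.96, 3.97, 4.23 and 4.21 in the 8 mg/kg livers, against 4.13, 4.68, 4.30, 4.57 and 4.59 in the control livers. All 5 treated livers lay below 4 of the controls, and control replicate 1 was lower than 3 of them. The difference was -0.32 (interval -0.58 to -0.06, adjusted p = 0.129, limma), and it was negative on 4 of 4 slides, by -0.70 to -0.07. Gstt1, which acts on dichloromethane and related compounds, gave -0.17 (interval -0.44 to 0.09) and was lower on 4 of 4 slides, by -0.22 to -0.02. Gstt3 gave -0.10 (interval -0.54 to 0.34).

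Set against each other member within the same livers, with the probes of a gene averaged, Gstm1's change of 0.54 exceeded that of every other member by 0.33 (Gstm4) to 0.86 (Gstt2). For 7 of the 9 genes the difference between Gstm1 and that gene was larger in every 8 mg/kg liver than in every control liver, and for Gstm3 and Gstm4 the groups overlapped. Gstm1 was chosen here for its change in the same contrast, and all 9 differences share its values. They are therefore a description and carry no test.

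**Figure D2:**
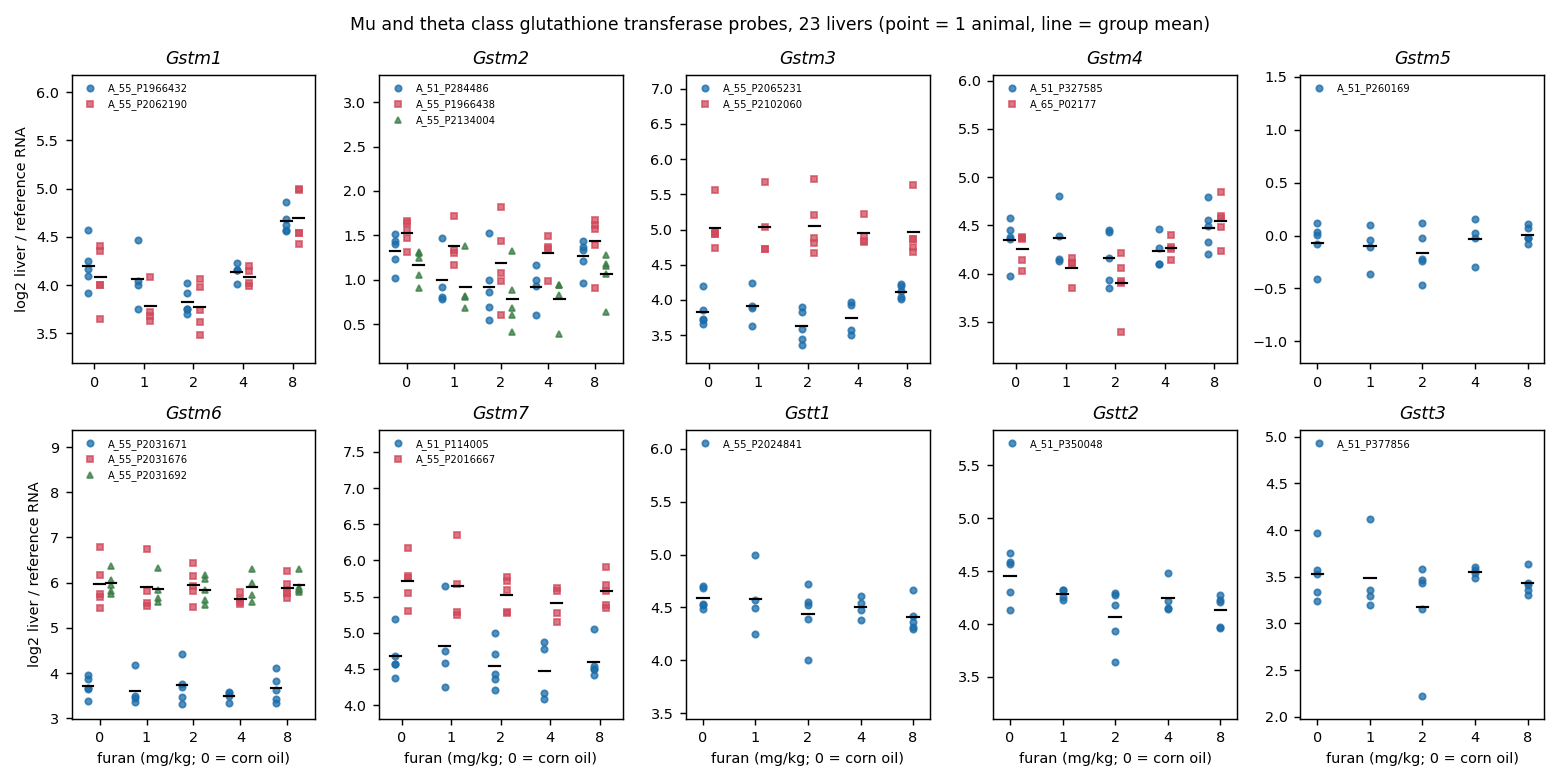
Log2 ratio of liver over reference RNA (vertical axis) at each dose of furan (horizontal axis, 0 is corn oil) for the 10 genes, with 1 point per animal, a colour and marker per probe, and a line at each group mean. Gstm1 is highest at 8 mg/kg and lowest at 1 or 2 mg/kg, and no Gstm6 or Gstm7 probe passed at any dose.

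Across the doses Gstm1 did not climb step by step. For A_55_P1966432 the mean log2 ratio was 4.20 ± 0.24 in the controls (SD, n = 5), 4.07 ± 0.30 under 1 mg/kg (n = 4), 3.83 ± 0.13 under 2 mg/kg (n = 5), 4.14 ± 0.09 under 4 mg/kg (n = 4) and 4.66 ± 0.12 under 8 mg/kg (n = 5). For A_55_P2062190 it was 4.08 ± 0.31 in the controls, 3.78 ± 0.21 under 1 mg/kg, 3.78 ± 0.24 under 2 mg/kg, 4.09 ± 0.10 under 4 mg/kg and 4.70 ± 0.27 under 8 mg/kg. Ordered by level, the 4 groups below 8 mg/kg had overlapping ranges with their neighbours for both probes, while the 8 mg/kg livers lay above all 4 mg/kg livers for both. The slope on dose asks for a steady trend and passed for both Gstm1 probes, at 0.07 ± 0.02 and 0.10 ± 0.02 per mg/kg (SE; adjusted p = 0.0123 and 0.00318, limma), where 9.79% of all probes passed and 2 of the 18 members did. A steady slope was fitted to means that lay below the controls at 1 and 2 mg/kg. Gstm4 A_65_P02177 had a slope of 0.06 ± 0.02 and fell just short (adjusted p = 0.0504, limma); it passed under 8 of 13 other settings and without 5 of 23 single arrays. The slopes of both Gstm1 probes failed when the spread was scaled between arrays (adjusted p = 0.221 and 0.153, limma).

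At 4 mg/kg no member probe passed the test against controls, where 0.0821% of all probes did. Gstm1 was at 0.00 (A_55_P2062190, interval -0.33 to 0.34) and -0.06 (A_55_P1966432, interval -0.33 to 0.21). The lowest differences were those of Gstm2, at -0.40 for A_51_P284486 and -0.39 for A_55_P2134004, which had unadjusted p of 0.0364 and 0.044 and adjusted p of 0.528 and 0.55 (limma). A_51_P284486 read 0.93, 0.99, 1.17 and 0.60 in the 4 mg/kg livers, against 1.51, 1.40, 1.23, 1.02 and 1.44 in the control livers. The groups overlapped at the lowest control.

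At 2 mg/kg no member probe passed, and none of the 25576 probes did (0%; 2212 had an unadjusted p under 0.05). Of the 18 member probes, 16 had negative differences, where 47.5% of all probes had positive ones. The median was -0.20 against -0.01 over all probes. The 18 probes cover 10 genes, so they are not 18 separate observations. At an unadjusted p of 0.05, 5 of the 18 were lower (27.8%), against 4.46% of all probes. They were Gstt2 (-0.39), Gstm1 A_55_P1966432 (-0.37), Gstm4 A_65_P02177 (-0.36) and Gstm2 A_51_P284486 and A_55_P2134004 (-0.40 and -0.38), with adjusted p between 0.399 and 0.528 (limma).

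Gstm1 A_55_P1966432 read 3.76, 4.02, 3.92, 3.70 and 3.75 in the 2 mg/kg livers, against 4.17, 4.57, 3.92, 4.10 and 4.25 in the control livers. One control shared the treated range. On the 4 slides with both groups, both Gstm1 probes and Gstt2 were lower at 2 mg/kg on all 4. The arrays of 2 mg/kg replicates 1 and 5 were high in pancreatic transcripts, and that of replicate 4 was high in neutrophil transcripts (5 genes), by 3.30 over the control mean, against at most 0.24 in controls. Replicate 4 was also the lowest of its group for all 3 theta class genes and the highest for all 3 Gstm2 probes. Without it the differences were -0.12 for Gstt3, against -0.36 with it, -0.04 for Gstt1, against -0.15, and -0.28 for Gstt2, and those of the Gstm2 probes were -0.55 to -0.50. The part of the neutrophil transcripts was not tested.

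The median over the 18 probes at 2 mg/kg was -0.19 without the 4 arrays high in pancreatic transcripts (17 of 18 lower), -0.15 without slide 3 (17 lower) and -0.20 with slide as a block (15 lower).

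At 1 mg/kg no member probe passed, no probe of all did (0%; 884 had an unadjusted p under 0.05), and no member had an unadjusted p under 0.05. The member differences ranged from -0.33 (Gstm2 A_51_P284486) to 0.14 (Gstm7 A_51_P114005), with a median of -0.08 against -0.01 over all probes. Gstm1 was at -0.30 (A_55_P2062190, interval -0.64 to 0.03) and -0.13 (A_55_P1966432). All 4 contrasts with controls share the same 5 control livers, so their differences are not independent of each other.

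**Figure D3:**
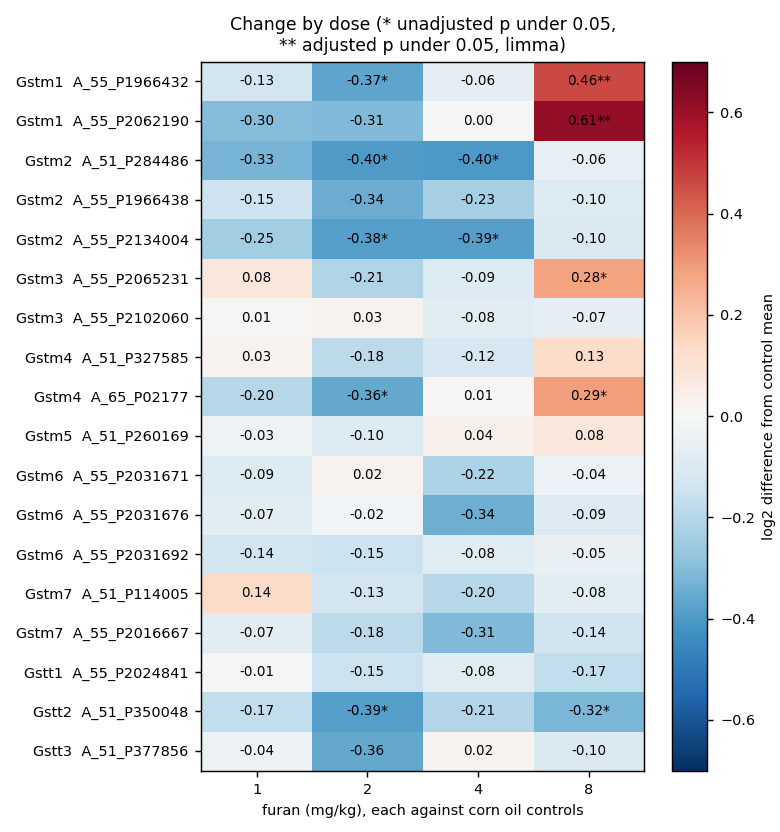
Log2 difference from the control mean by furan dose (columns, 1 to 8 mg/kg) for the 18 probes (rows). Blue is lower and red is higher than controls; the 2 cells marked with a double star, Gstm1 at 8 mg/kg, are those that passed the adjusted test, and 16 of 18 cells at 2 mg/kg are negative.

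Setting 8 against 4 mg/kg compared doses without the controls. No member probe passed (0.192% of all probes did). All 15 mu class differences were positive and all 3 theta class differences were negative, where 50.8% of all probes were positive. The median over the 18 was 0.17, against 0.00 over all probes. Slide 3 held an 8 mg/kg array but none of 4 mg/kg: without it 13 of 15 mu class differences were positive, with slide as a block 12 were, and 7 of the 15 probes were higher at 8 mg/kg on all 4 slides that held both doses. Gstm1 A_55_P2062190 read 4.99, 4.43, 4.98, 4.54 and 4.54 at 8 mg/kg, against 4.15, 4.02, 4.20 and 3.99 at 4 mg/kg. No liver overlapped, and the difference was 0.61 (interval 0.28 to 0.94, adjusted p = 0.166, limma), which passed with slide as a block at 0.59 (0.0273). A_55_P1966432 gave 0.52 (adjusted p = 0.131) and Gstm3 A_55_P2065231 gave 0.38 (0.421), also with groups that did not overlap. These 3 of 18 probes compare with 2.24% of all probes whose livers at 8 mg/kg were all above those at 4 mg/kg, and 2 of them belong to Gstm1. Hepatocyte transcripts moved the same way in this contrast, with a median of 0.20 over 11 genes and 0 passing, and their part in the mu class differences was not tested.

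Among animals of the same dose, the members differed by slide. On slide 3 the median deviation of the 18 probes from their group means was 0.17, against 0.03 over all probes. There 13 of the 18 deviated upward (72.2%), against 58.4% of all probes. For 11 of the 18 probes, some of them of the same gene, slide 3 was the highest, a count not made over all probes. The deviation reached 0.63 for Gstm3 A_55_P2102060. The Gstm6 and Gstm7 probes deviated upward on slide 3 too, all 5 of them, and the Gstt1 and Gstt3 probes likewise. Gstm4 A_65_P02177 and 2 Gstm2 probes, in contrast, were lower on slide 3 than their group means, and Gstm5 and Gstt2 lay near them. On slide 4 the median was -0.12, against -0.04 over all probes. Hepatocyte transcripts were also highest on slide 3, and Kupffer cell and erythrocyte transcripts lay above the control mean there. Whether tissue makeup or the slide itself moved the members was not tested.

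**Figure D4:**
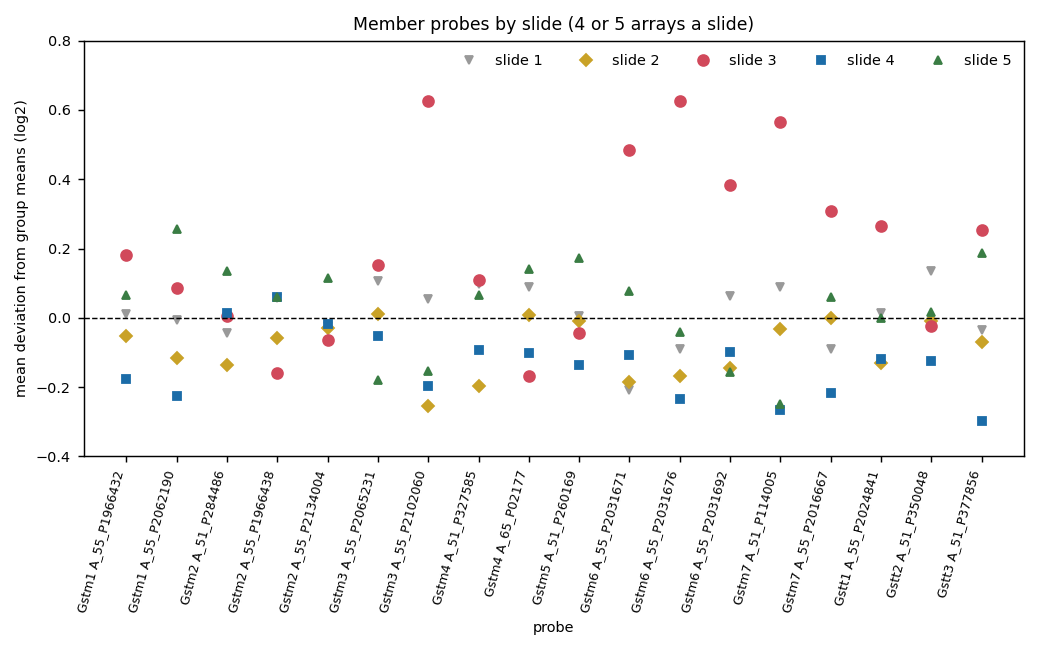
Mean deviation of each member probe from its dose group means (vertical axis, log2) on each of the 5 slides, with 4 or 5 arrays a slide. The red points of slide 3 stand highest for 11 of 18 probes and reach 0.63 for Gstm3 A_55_P2102060.

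The transcripts most like the members over the 23 arrays were listed for the 3 members with the lowest unadjusted p for the slope, by Pearson's r over the brightest probes of 12917 genes. For Gstm1 these were Gm10639 (0.867), Scyl2 (0.833), Aox1 (0.826), an aldehyde oxidase, Polk (0.824), a translesion DNA polymerase, and Phf3 (0.823). At 8 mg/kg, Gm10639 was 3.07 higher than in controls (adjusted p = 7.81e-05, limma). Polk was 0.80 higher (0.0045), Scyl2 0.57 (0.0052) and Aox1 0.49 (0.0149), and Phf3 (0.12) did not pass. For Gstm4 the list was led by Grwd1 (0.809), a factor of ribosome assembly, and Fdx2 (0.80), a mitochondrial ferredoxin. For Gstm3 it was led by Mrpl57 (0.757) and Mrpl30 (0.751), both of the mitochondrial ribosome. These values rest on arrays that share dose groups and slides.

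The genes that make, use and regenerate glutathione, with related redox genes, were counted at 8 mg/kg against controls by the brightest probe of each gene. In this contrast 9.25% of 12927 genes passed. Of the 16 genes measured on the list of other glutathione transferases, 4 rose and none fell. This list also holds the prostaglandin E synthase genes Ptges and Ptges2. Gsta1 rose by 4.06 ± 0.59 (16.7-fold, adjusted p = 0.00025) and Gsta2 by 1.97 ± 0.40 (3.92-fold, adjusted p = 0.00422), both alpha class enzymes (SE, limma). The pi class genes Gstp2 and Gstp1 rose by 0.56 and 0.52 (adjusted p = 0.0255 and 0.0367, limma). Gsta1 and Gsta2, like Gstp1 and Gstp2, are near-identical copies, so each probe may read its partner. The median over the 16 was -0.04, against 0.08 over the 7 mu genes and -0.17 over the 3 theta genes.

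The list of glutathione synthesis and reduction, with 26 genes measured, also held thioredoxin, peroxiredoxin and pentose phosphate genes. Of the 26, 3 rose and 1 fell. Txnrd1, thioredoxin reductase, rose by 0.59, Srxn1, sulfiredoxin, by 0.81, and Gclc, the catalytic subunit of the enzyme that limits glutathione synthesis, by 0.75 (adjusted p = 8.33e-05, 0.000131 and 0.00356, limma). Of these 3, only Gclc acts in making or reducing glutathione itself. Gclm, Gss and Gsr, which also do, did not pass (adjusted p = 0.23, 0.60 and 0.38, limma). Glrx, glutaredoxin, fell by 0.36 (adjusted p = 0.00663). Of 22 genes of conjugate export and mercapturate processing, Ggct rose by 0.48, while Chac1, which breaks down glutathione, fell by 1.44 and Acy1, which removes acetyl groups from mercapturates, fell by 0.44 (adjusted p = 0.0146, 0.00394 and 0.0278, limma).

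Of 15 regulators of transferase genes, Jun, a subunit of AP-1, rose by 2.24 (4.72-fold, adjusted p = 4.5e-07) and Nfe2l2, which encodes Nrf2, by 0.56 (0.00658, limma), and the other 13 did not pass. In the same contrast none of 11 hepatocyte genes passed, and of 11 genes of pericentral hepatocytes, the zone around the central vein, 1 fell (Oat). None of the 4 pancreas, 5 neutrophil, 10 Kupffer cell, 10 stellate cell, 5 cholangiocyte or 4 erythrocyte genes measured passed. Of 11 endothelial genes, 10 had lower means and 1 passed, Eng (-0.47, adjusted p = 0.0483, limma), while Clec14a (-0.48) just missed (0.0519). The mean of that list over the genes lay between -0.53 and -0.01 in the 8 mg/kg livers, relative to the control mean, and between -0.21 and 0.36 in the control livers. Its part in the member differences was not tested. Of 3 adipose genes, Cidec was higher (1.33) and passed, and Fabp4 (-0.38) and Plin4 (-0.49) had lower means and did not.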

How the data were processed

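Liver RNA of 23 mice was measured on 2-colour Agilent SurePrint G3 arrays of 62976 spots. Per the file headers, Agilent Feature Extraction 10.7.3.1 read the scans, and the deposited processed intensity of each channel was already background-subtracted and dye-normalised. Per the labels, liver RNA carried Cy5 and the reference RNA Cy3. The authors also deposited a value table, a linear ratio for each probe and array, whose scale was read from the values: on a log2 scale it correlated with the values used here at 0.922 to 0.97 per array, with column medians of 0.974 to 0.987. Centring by the authors is not given in the sources used here. It served as an alternative.

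Log2 ratios of Cy5 over Cy3 were loess-normalised array by array, with a span of 0.3 and 4 iterations and without control or flagged spots, and spots of 1 probe were averaged. Probes well above background in Cy5 on at least 4 arrays of a group were kept (25576 of 55681). Probes were named by the accession in the array's annotation through the RefSeq gene table, which matched 26413 probes to 20018 symbols. The number of probes above background per array lay between 22011 and 30120. Arrays of the same dose correlated at a median of 0.974 and arrays of different doses at 0.972.

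A linear model with dose group as its only term was fitted to all 23 arrays, and a second on numeric dose for the slope, with limma 3.58.1 (lmFit, eBayes) in R 4.3.3. P-values are two-sided and were adjusted by Benjamini-Hochberg over all 25576 probes, with a threshold of 0.05, and intervals are 95% intervals from the same fit. The models were tested on simulated data drawn without slide effects. For 8 mg/kg against control, 37.3% of 1.5-fold changes, 79.1% of 2-fold changes and 98.5% of 4-fold changes were recovered. Of the calls, 2.72% were false, and 4.67% for 4 mg/kg against control. Only 67, 67 and 66 of 25576 probes were changed at these 3 sizes, a smaller share than the 7.55% called in the data. The recovered shares may therefore not carry over to the data. Every member probe is reported. From each other list, the text names the genes with the smallest adjusted p at 8 mg/kg, up to 6. The members, the lists and the arrays left out in alternatives were chosen with earlier results of these data known, so a pattern in them is not independent support. Promoter matches came from a search of RefSeq sequences in Python 3.11.15. The labels house mice in cages of 5, and which animals shared a cage is not given in the sources used here.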

Additional observations from a re-analysis of the deposited data

Results flagged for a closer look

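In 5 of the 90 probe and dose groups examined for the members, 1 array lay far from the rest of its group by Dixon's criterion, where chance gives about 4.5. All 5 were high values on arrays of slide 3. For Gstm3 A_55_P2102060, 8 mg/kg replicate 3 stood at a log2 ratio of 5.63, with the nearest liver of its group at 4.87, and control replicate 2 at 5.56, with the nearest at 4.96. For Gstm6, 8 mg/kg replicate 3 stood at 6.30 on A_55_P2031692 (nearest 5.91) and 1 mg/kg replicate 1 at 4.17 on A_55_P2031671 (nearest 3.49). For Gstm7 A_51_P114005, 8 mg/kg replicate 3 stood at 5.04 (nearest 4.54). None of these probes passed at any dose.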

How the results depend on the processing

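The count of member probes called was recomputed under 35 other settings per comparison. The 1, 2 and 4 mg/kg contrasts stayed at 0 called under all 35. At 8 mg/kg the count of 2 became 0 with scale normalization, 1 with no filter on dim probes and 1 without the 4 arrays rich in pancreatic transcripts; it ranged from 1 to 2 when single arrays were left out. Without slide 3 it stayed 2, but the probes were Gstm1 A_55_P1966432 and Gstm4 A_65_P02177. For 8 against 4 mg/kg the count of 0 became 1 with slide as a block. For the slope the count of 2 became 0 with scale normalization and ranged from 2 to 3 when single arrays were left out. Gstm4 A_65_P02177 joined both Gstm1 probes with normexp, uncorrected medians, no loess or slide as a block. It also joined with an intensity trend and robust prior, with probes above background on every array of a group, and without slide 3. By brightest probe the count of 1 became 2 with 1 probe per gene (Gstm4 joined). The cause was not tested. No called member changed direction; 223 of 3840 recomputed values changed sign, all of them uncalled.

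Calls over all probes at 8 mg/kg moved with the setting: 1225 with normexp, 1236 with uncorrected medians, 990 with scale normalization, 1145 from the authors' ratios, 972 with no filter and 2812 with slide as a block, against 1932. For the slope they ranged from 1261 to 3707, against 2503, for 4 mg/kg from 8 to 71, against 21, and for 8 against 4 mg/kg from 15 to 72, against 49.

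The labels do not say whether replicate numbers pair the animals. Deviations of same-numbered arrays correlated at a median of 0.0236 (-0.228 to 0.378, 14 of 43 pairs over 0.1). For other pairs the median was -0.0407 (-0.289 to 0.497, 32 of 168 pairs over 0.1). With the replicate block 2 member probes were called at 8 mg/kg and 2 for the slope, no member call changed, and 1830 of all probes were called at 8 mg/kg.

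All members were well above background on every array. The number of animals, 4 or 5 a group, limits the intervals.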
